A study of Mus musculus with 2 samples.

Results

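The chromatin loops around Ebf1, the gene of early B-cell factor 1, were followed in the uterus of the mouse at 2 stages of the estrous cycle. Loops were taken from both deposited loop lists when they lay on chromosome 11 and had at least 1 anchor inside positions 44000000 to 46000000 of mm10. The locus was chosen by the number of loops at Ebf1 in these same lists, so loop numbers are given as a description. The rule gave 38 of the 24131 loops listed for estrus and 42 of the 26240 listed for diestrus, or 80 of 50371 in all. The tissue came from untreated CD-1 females of an outbred stock, aged 2 months, with 1 Hi-C library from estrus (n = 1) and 1 from diestrus (n = 1). Hi-C joins and sequences pieces of DNA that were close together in the nucleus, and a loop here is a pair of bins of 10 kb that the caller found to touch more often than their surroundings. Whole uterus was used, with pooling of animals not given in the sources used here. A loop list holds no expression, so the tissue could not be checked by its markers.

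Ebf1 belongs to the EBF family, transcription factors with an atypical zinc-binding DNA-binding domain and a helix-loop-helix domain for pairing. It is best known for its role in B-cell commitment, and it also acts in fat cell precursors, fibroblasts and the cells around small vessels. Chromatin loops can bring a promoter close to distant regulatory DNA, or hold the borders of a domain together, and the called loops alone do not tell these apart.

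Ebf1 occupies chr11:44618100-45008096 (mm10, plus strand), a length of 390.0 kb. Its next protein-coding neighbour upstream, Rnf145, an E3 ubiquitin ligase of the endoplasmic reticulum, ends 52.6 kb before it. Downstream no protein-coding gene lies in the 844 kb between Ebf1 and Clint1, a clathrin adaptor gene of vesicle traffic. RefSeq on GRCm38.p6, the assembly that mm10 names, gives Ebf1 2 start sites, at 44618100 and 44620228. The first lies in the bin 44610001 to 44620000, which carried 9 loops in estrus and 10 in diestrus. The second lies 228 bases past the edge of that bin, in the bin 44620001 to 44630000, which carried 0 loops in either list, so at 10 kb the loops could not be assigned to one start site. Both promoters are printed from 250 bases before to 50 bases after the start site, because the start bin is the anchor on which most of the results turn. Capitals mark the estrogen response element half-site GGTCA on either strand.

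Ebf1 first start site, chr11:44617850-44618149, plus strand: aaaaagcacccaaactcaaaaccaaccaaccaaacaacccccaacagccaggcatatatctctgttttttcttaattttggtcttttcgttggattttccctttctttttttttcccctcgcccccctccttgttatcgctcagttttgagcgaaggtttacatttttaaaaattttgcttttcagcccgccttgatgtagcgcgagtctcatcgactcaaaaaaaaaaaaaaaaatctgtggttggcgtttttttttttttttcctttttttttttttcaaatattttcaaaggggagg
Ebf1 second start site, chr11:44619978-44620277, plus strand: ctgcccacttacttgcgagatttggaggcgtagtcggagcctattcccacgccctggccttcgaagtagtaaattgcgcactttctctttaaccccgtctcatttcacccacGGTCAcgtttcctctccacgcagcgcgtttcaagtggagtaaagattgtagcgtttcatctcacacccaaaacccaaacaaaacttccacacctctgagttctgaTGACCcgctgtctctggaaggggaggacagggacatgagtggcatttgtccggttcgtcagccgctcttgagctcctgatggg

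The first promoter had a GC content of 36.7%, with a run of 15 T, and the second 53%, against a median of 52.7% over 32851 mouse promoters of the same length. The half-site occurred 0 times in the first and 2 times in the second, where it started 138 and 33 bases before the start site. It occurred in 40.5% of all promoters, so its presence is common. Neither Ebf1 promoter held the EBF motif CCCNNGGG, found in 13.7% of promoters, the core motif of the insulator protein CTCF, found in 0.557%, the estrogen response element GGTCANNNTGACC, found in 0.0700%, or the progesterone response element GNACANNNTGTNC, found in 0.475%. All motifs were searched on both strands. The half-site GGTCA also lies within each full estrogen response element. The E-box CANNTG, a motif of helix-loop-helix proteins, occurred 0 times in the first promoter and 2 times in the second, and in 72.3% of all promoters.

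The loops fell into separate neighbourhoods, drawn in the plot of arcs. Upstream of Ebf1, 10 loops in estrus and 9 in diestrus ended at or before the bin 44520001 to 44530000. The Ebf1 domain followed, with 25 loops in estrus and 31 in diestrus that began at or after 44580001 and ended at or before 45930000. Beyond Clint1, 3 loops in estrus and 2 in diestrus left the bin of Thg1l. No loop of the window in either list crossed from the upstream group into the Ebf1 domain. In the whole of chromosome 11, 2 loops in estrus and 1 in diestrus passed over the interval between 44530000 and 44580001, and the shortest of them spanned 77.05 Mb in both libraries.

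**Figure D1:**
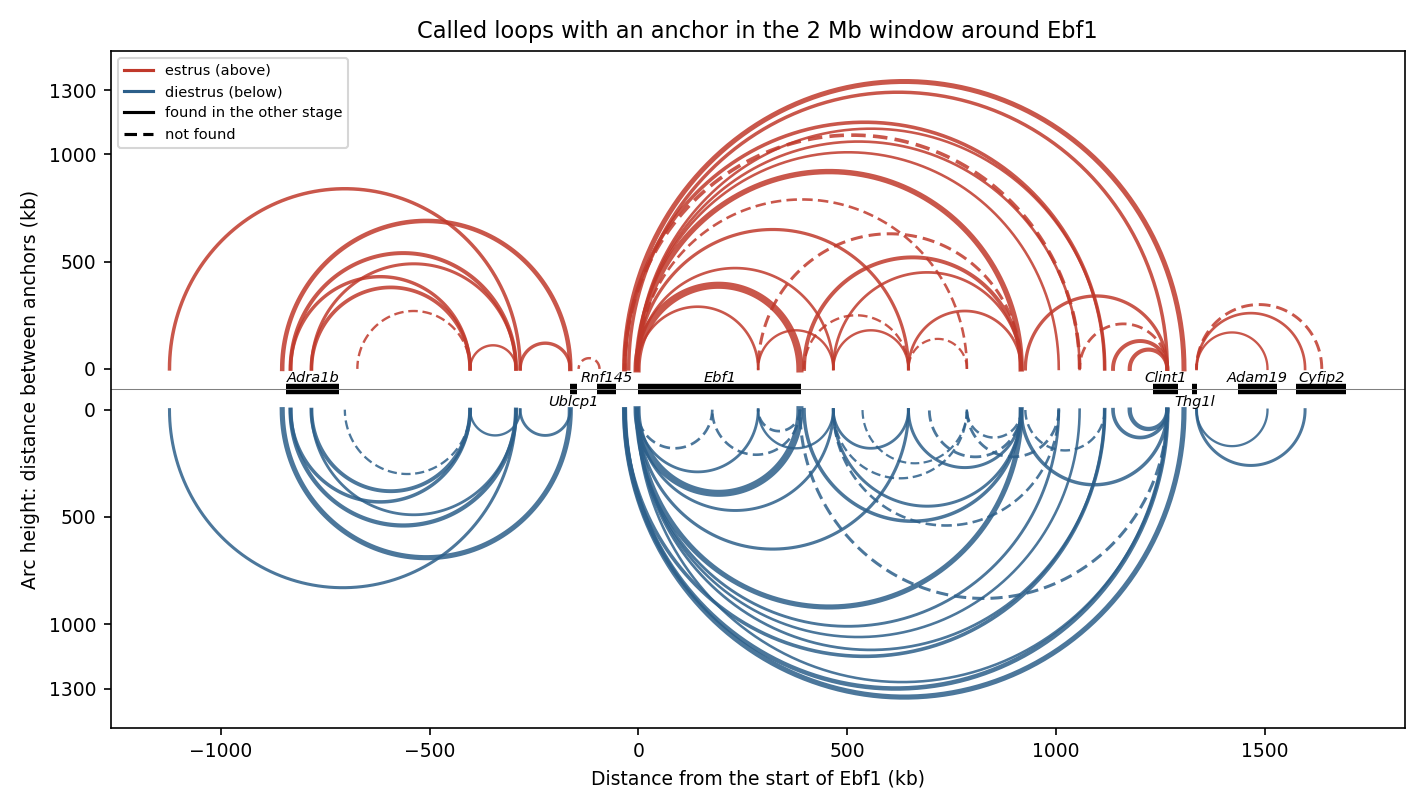
Loops with an anchor in the 2 Mb window, as arcs between the centres of their anchors; the horizontal axis is the distance from the start of Ebf1 in kb and the height is the distance between the anchors in kb. The 38 estrus loops are drawn above and the 42 diestrus loops below, line width grows with strength (observed over expected contacts), and dashed arcs are the 9 estrus and 12 diestrus loops not found in the other stage. Black bars are genes, and no arc joins the group left of Ebf1 to the group that starts at it.

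The bin of the Ebf1 start site looked in 1 direction. All 9 of its loops in estrus and all 10 in diestrus ran downstream, along or past the gene, and 0 ran upstream in either library. By far the strongest joined the start bin to the bin 45000001 to 45010000, which holds the 3′ end of the gene at 45008096. This loop held 522 contacts in estrus (95% interval 478 to 569) and 669 in diestrus (619 to 722). That was 9.79 times the contacts expected from the surrounding donut of pixels in estrus and 9.62 times in diestrus, within the strongest 3.52% of all estrus loops and 3.38% of all diestrus loops. The ends of Ebf1 were thus joined in both libraries at nearly the same strength. The intervals cover counting error only, and there was 1 library per stage, so no difference given here has a replicate check and no test was possible.

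The second strongest loop of the start bin spanned 920 kb, to the bin 45530001 to 45540000 in the interval between Ebf1 and Clint1. It held 250 contacts in estrus (220 to 283) and 278 in diestrus (246 to 313), at 7.02 and 6.59 times the expected number in estrus and in diestrus. The other partners had lower values, between 2.47 and 3.41 times the expected number in estrus and between 2.45 and 3.34 times in diestrus. They included the bin 44900001 to 44910000 inside Ebf1, with 163 contacts in estrus (139 to 190) and 229 in diestrus (200 to 261). They also included the bins starting at 45080001, 45260001, 45620001, 45670001 and 45730001, all downstream of the gene and present in both lists. In all, 7 of the 9 start-bin loops in estrus and 6 of the 10 in diestrus ended in the interval between Ebf1 and Clint1.

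At 8 partners the start-bin loop was called at identical anchors in both stages, and at each of the 8 it held fewer contacts in estrus. Together these loops held 1381 contacts in estrus and 1790 in diestrus, a ratio of 0.772. The counting interval of the ratio lay below 1 at 44900001 (0.712, 0.579 to 0.874), at 45000001 (0.780, 0.695 to 0.876), at 45080001 (0.642, 0.495 to 0.828), at 45620001 (0.684, 0.508 to 0.916) and at 45730001 (0.694, 0.489 to 0.979). How many loops of the genome had such an interval was not counted. The 3 others, at 45260001, 45530001 and 45670001, had ratios of 0.796, 0.899 and 0.828 with intervals that reached 1. These ratios are not corrected for depth. The 8 loops share the start bin, so they are not 8 separate observations. Whether the coverage of that bin differed between the libraries was not tested. Over the genome, 16240 loops of all lengths were called at identical anchors, with a median ratio of 0.959, and 59.4% of them held fewer contacts in estrus. By length, the median was 0.939 over 200 to 400 kb, 0.930 over 400 to 800 kb and 0.934 over 800 to 2000 kb. On chromosome 11 the medians of these classes were 0.916, 0.951 and 0.907. The interval at 45730001 held the genome median of 0.959, and those at 45620001 and 45730001 held the chromosome 11 median of 0.907.

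**Figure D2:**
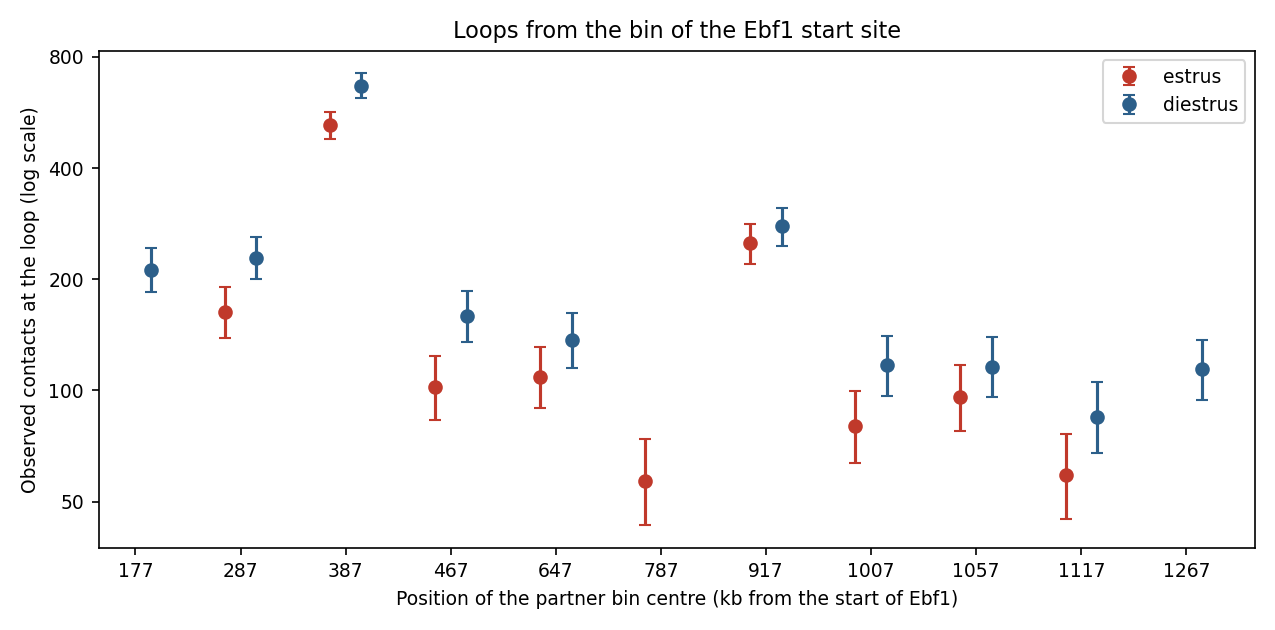
Observed contacts (log scale) at each loop of the bin with the first Ebf1 start site, by the position of the partner bin in kb from the start of Ebf1. Points are single libraries, estrus left and diestrus right at each partner, and bars are exact 95% Poisson intervals for counting error. The estrus point is lower at all 8 shared partners, the partner at 387 kb (the end of Ebf1) is highest in both stages, and the partners at 177, 787 and 1267 kb were called from this bin in 1 stage only.

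The start bin had 3 partners called from it in a single stage. In diestrus it looped to 44790001 to 44800000, inside Ebf1, with 212 contacts (184 to 243) at 2.63 times the expected number. Also in diestrus it looped to 45880001 to 45890000, inside Clint1, with 114 contacts (94.0 to 137) at 2.45 times. Estrus had a loop to that Clint1 bin from 44590001, 20 kb away, so the diestrus loop counts as found in estrus by the tolerance of 10 kb between anchor edges. In estrus the start bin looped to 45400001 to 45410000, with 57 contacts (43.2 to 73.8) at 2.53 times the expected number.

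Counting loops with an end of Ebf1 in an anchor gave 9 in estrus and 13 in diestrus, the numbers for which the gene was chosen. Of 9049 protein-coding genes with a loop, 0.199% had at least 4 fewer in estrus, a set that includes Ebf1 by choice. Estrus had 8 of its 9 matched in diestrus, and diestrus had 9 of its 13 matched in estrus. Much of the difference lay inside the gene body. With both anchors in the bins from the start to the end of Ebf1, there were 2 loops in estrus and 5 in diestrus. The 3 further diestrus loops lay along the gene, and the first was the loop to 44790001 given above. Another ran from 44790001 to the gene end, with 152 contacts (129 to 178) at 2.51 times the expected number. The last overlapped it, from 44900001 to the gene end, with 231 contacts (202 to 263) at 2.64 times. All 3 lay below the median of 3.28 times over all diestrus loops. The bin 44790001 to 44800000 was an anchor in diestrus alone. These were also the 3 loops with most contacts among those called only in diestrus in the window.

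A further part of the difference lay at the border of a bin. Estrus loops from the end of Ebf1 toward Clint1 began at 45010001, 1 bin past the gene end, while diestrus had loops at both 45000001 and 45010001. Allowing 5 kb between an end of Ebf1 and an anchor gave 11 loops in estrus and 14 in diestrus. The diestrus loop from 45000001 to 45880001 in Clint1, over 880 kb, held 49 contacts (36.3 to 64.8), 3.20-fold over the donut, and had no counterpart in estrus. The loop from 45010001 to 45530001 was in both lists, with 156 contacts in estrus and 150 in diestrus. Among the 15 loops of the Ebf1 domain at identical anchors, leaving out those of up to 200 kb into Clint1, it was the only one with more contacts in estrus. That exclusion was made after the values were seen, and the 2 loops left out also had more contacts in estrus.

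The interval between Ebf1 and Clint1, which has long noncoding RNA genes but no protein-coding gene, held its own set of loops. With both anchors in it there were 6 loops in estrus and 11 in diestrus. Its busiest anchor, the adjoining bins 45530001 to 45550000, had 6 loops in estrus and 8 in diestrus, of which 5 in each were found in the other stage. The bin 45080001 to 45090000, which holds the start site of the long noncoding RNA Gm51859, had 4 loops in estrus and 6 in diestrus. The bin 45260001 to 45270000 went the other way, with 5 loops in estrus and 3 in diestrus.

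The bin 45400001 to 45410000 was an anchor in both stages and shared no loop between them. Its 2 estrus partners were the Ebf1 start bin and 45260001, and the loop to 45260001 had 136 contacts (114 to 161), 1.93-fold over the donut. Its 4 diestrus partners were 45080001, 45150001, 45530001 and 45620001, with 101, 72, 146 and 88 contacts. The strengths of these 4 lay between 1.82 and 2.78, all below the median of 3.28 over all diestrus loops.

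**Figure D3:**
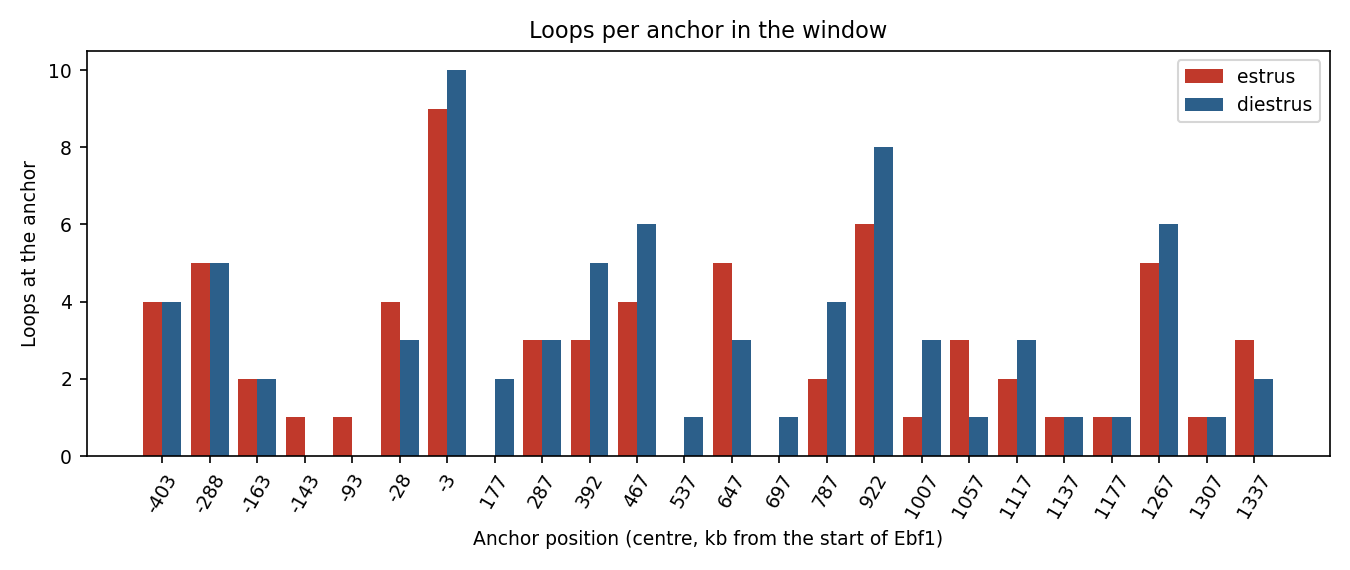
Number of called loops at each anchor inside the window, estrus left and diestrus right, by the position of the anchor in kb from the start of Ebf1; adjoining bins are drawn as 1 anchor, and a loop is counted at each of its anchors in the window. The start bin of Ebf1 (at -3 kb) has 9 and 10 loops in estrus and diestrus, the most of any anchor, and the anchors at -143 and -93 kb have loops in estrus only and those at 177, 537 and 697 kb in diestrus only.

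Over the window as a whole, 9 of 38 estrus loops and 12 of 42 diestrus loops were not found in the other stage, or 23.7% and 28.6%. Over all loops of the 2 lists the shares were 19.2% in estrus and 25.6% in diestrus, so the window did not stand far from the genome in this respect. In each set of loops not found, 7 had both anchors within 1 bin of an anchor in use in the other library. This was not counted over the genome. The 9 and 12 loops not found had a median of 2.53 times the expected contacts in estrus and 2.53 times in diestrus. Loops of the window found in the other stage had 3.62 and 3.18 times. The genome showed the same order in estrus and diestrus, with 2.57 and 2.56 times for loops not found. Its loops found had 3.74 and 3.68 times. The loops of the window were long. Their median length was 410 kb in estrus and 365 kb in diestrus, against 230 kb and 240 kb over all loops. The diestrus median was 410 kb with all 4 q-values at most 0.01 and 430 kb when only the strongest diestrus loops were kept. The estrus median stayed at 410 kb, so no order between the stages is read from these lengths. In each list 7 loops were over 1 Mb, or 18.4% in estrus and 16.7% in diestrus, against 8.38% and 8.21% over all loops.

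No paired loop of the window moved past 1.5-fold in strength. Of the 29 pairs of mutually nearest loops, 0 were over 1.5-fold stronger and 0 over 1.5-fold weaker in estrus after centring on the median of all pairs, where 1.64% and 1.56% of the 19399 pairs of the genome were past these limits. The median centred log2 ratio, estrus over diestrus, was -0.08. At the strongest loop, between the ends of Ebf1, it was 0.01 (-0.16 to 0.18). The 3 largest values were 0.34 (-0.14 to 0.81) at the loop from 44330001 to 44450001, 0.25 (-0.56 to 1.04) at the pair from 43490001 near C1qtnf2, a gene of a secreted C1q-like protein, to 44330001 in estrus and 44320001 in diestrus, and 0.21 (-0.12 to 0.55) at the loop from 45010001 to 45530001. All of these intervals held 0. The C1qtnf2 pair compares neighbouring bins, with 26 contacts over 6.70 expected in estrus and 32 over 9.92 in diestrus.

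The 3 lowest values were -0.54 (-0.95 to -0.12) at the pair from 44590001 in estrus and 44580001 in diestrus to 45880001, -0.32 (-0.61 to -0.03) at the loop from 45080001 to 45260001, and -0.27 (-0.58 to 0.03) at the loop from 45950001 to 46210001. The first of them compares neighbouring bins, and its expected contacts were 26.1 in estrus and 17.6 in diestrus, while the contacts themselves were 101 and 98. The loop from 45080001 to 45260001 had the lowest ratio of contacts among loops at identical anchors of the window, with 157 in estrus and 287 in diestrus, a ratio of 0.547 (0.447 to 0.667). In the number of contacts, the loop between the ends of Ebf1 differed more.

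The contacts around the loops were fewer in estrus as well. The expected number from the donut, which measures the local background, was lower in estrus for 23 of the 25 pairs at identical anchors, and below 0.8 times its diestrus value for 12 of them. Over the genome 6.59% of such pairs were below 0.8. For the 8 start-bin loops the median ratio of the background was 0.776, and 6 of the 8 were below 0.8. All 8 share the same anchor bin, so they are not 8 separate observations. These loops spanned 290 to 1120 kb, and the share below 0.8 grew with length over the genome. It was 3.89% of pairs at identical anchors over 100 to 200 kb, 7.67% over 200 to 400 kb, 11% over 400 to 800 kb and 12.3% over 800 to 2000 kb. For the strongest loop the donut gave 53.3 expected contacts in estrus and 69.5 in diestrus, a ratio of 0.767, beside the ratio of 0.780 for the contacts at the loop itself.

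Among loops at identical anchors, the median background ratio was lower in most of the Ebf1 domain and at Thg1l than upstream of Ebf1. For first anchors from 44580001 to 45260001, all 15 loops had a lower background in estrus, with a median ratio of 0.777, and 14 of 15 had fewer contacts. Upstream of Ebf1, the 6 loops had a median background ratio of 0.910 and 0 of them were below 0.8. At the Clint1 end, the 2 short loops from 45750001 and 45790001 to 45880001 went the opposite way, with 267 and 499 contacts in estrus and 222 and 460 in diestrus, and a median background ratio of 1.13. The 2 loops from Thg1l had a median background ratio of 0.779. These stretches were drawn after the values were seen.

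**Figure D4:**
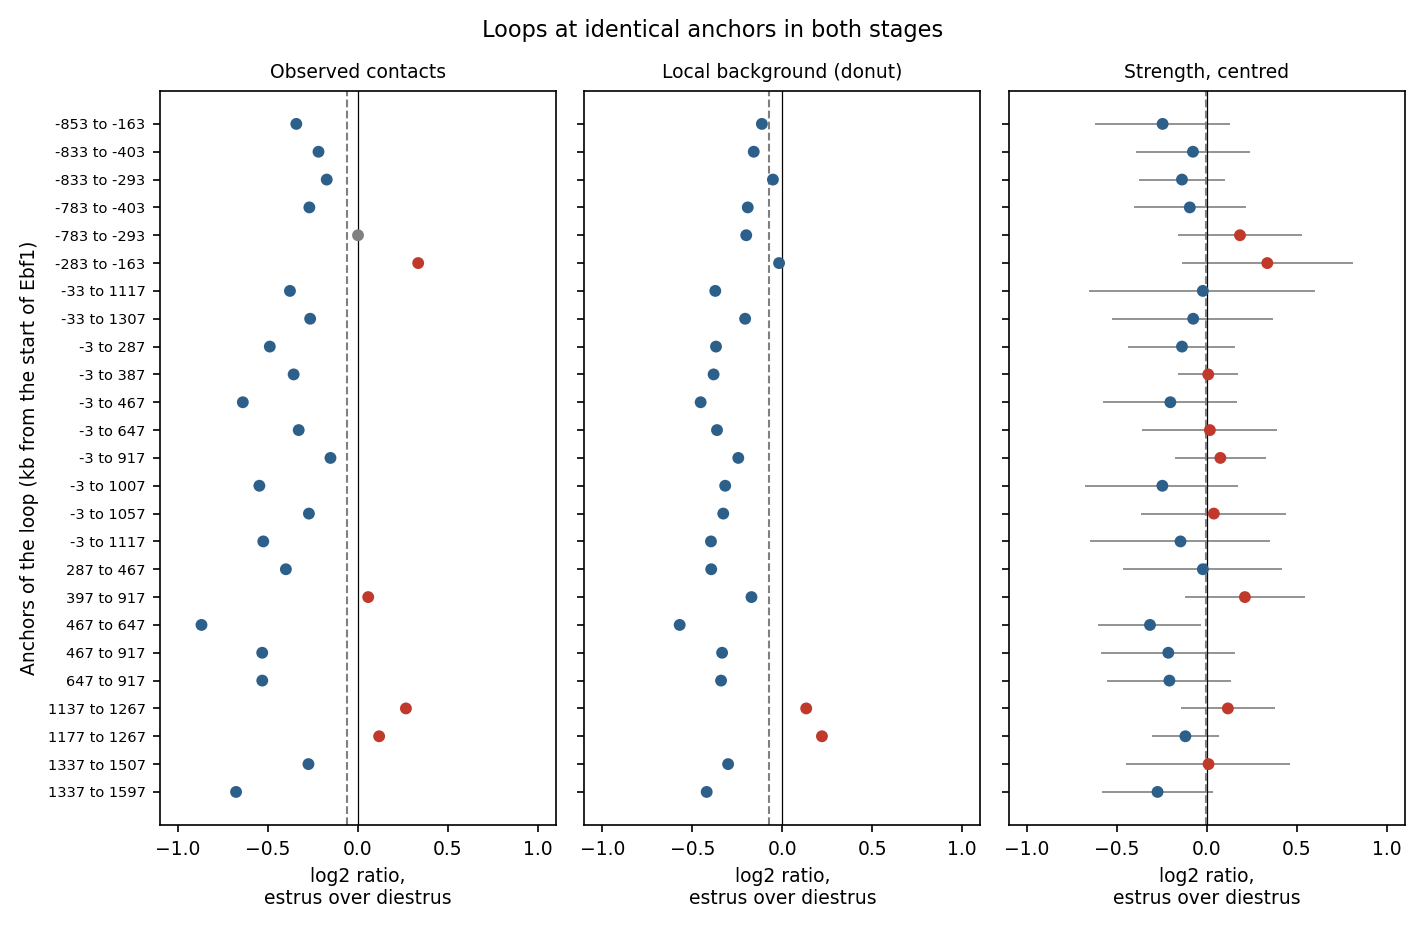
The log2 ratio, estrus over diestrus, of observed contacts (left), of the donut expectation (middle) and of strength centred on the genome median (right) for the 25 loops called at identical anchors, ordered along the chromosome and labelled by their anchors in kb from the start of Ebf1. Bars at right are 95% counting intervals, and dashed lines are the medians of the 16240 loops at identical anchors over the genome. Contacts and background lie left of the dashed line for every loop from the Ebf1 start bin (-3 kb), and strength lies on both sides of it.

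Set beside other windows of 2 Mb with at least 10 loops at identical anchors, the Ebf1 window had 1 of the lowest backgrounds in estrus relative to diestrus. The median log2 ratio over its 20 loops that began in the window was -0.34, lower than in all but 2 of 820 windows, of which the middle 95% ran from -0.27 to 0.04. It was the lowest of the 49 windows of chromosome 11. After the median of each length class was subtracted the value was -0.24, again with 2 windows lower. The median log2 ratio of contacts was -0.37, with 8 windows lower. This ranking is a description of 2 libraries, and the window had been chosen for loop numbers in these same libraries. In numbers of loops the window stood apart less, with 126 of 1272 windows having as many or more in estrus and 106 in diestrus. The difference of -4 loops was matched or exceeded by 403 windows.

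**Figure D5:**
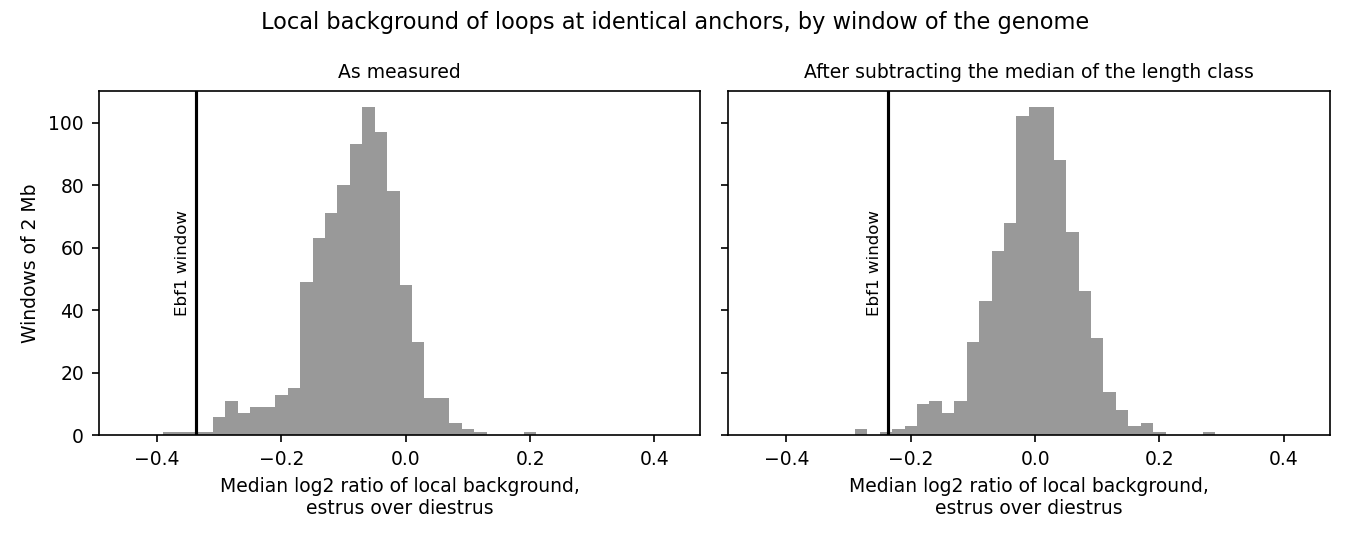
Windows of 2 Mb by their median log2 ratio, estrus over diestrus, of the donut expectation of loops at identical anchors (820 windows with at least 10 such loops), as measured at left and after subtracting the genome median of each length class at right. The black line marks the Ebf1 window, at -0.34 and -0.24, with 2 windows below it in each panel.

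The background also had a direction, which was alike in the 2 stages. The caller gives an expectation from a horizontal and from a vertical strip through each loop, and the files do not say which anchor each strip follows. For the start-bin loops the horizontal expectation exceeded the vertical one at 7 of 9 in estrus and 7 of 10 in diestrus, with a median ratio of 1.35 and 1.40. For loops that began at 44580001, by the long noncoding RNA 4930597A21Rik upstream of Ebf1, the ratio ran from 1.69 to 1.98 in estrus and from 1.73 to 1.91 in diestrus. For loops that ended at 45530001 it ran the other way, from 0.576 to 0.832 in estrus and from 0.545 to 0.820 in diestrus. Over all loops the median was 0.999 in both lists. The 2 strongest start-bin loops, to the gene end and to 45530001, had ratios below 1 in both stages.

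Outside the Ebf1 domain, the estrus loop with most contacts among those not found in diestrus joined 2 promoters. It ran over 50 kb from 44470001 to 44480000, which holds the start site of Ublcp1, a phosphatase that acts on the proteasome, to 44520001 to 44530000, which holds start site 3 of the 3 start sites of Rnf145. Its contacts numbered 333 (298 to 371), or 2.27-fold over the donut, and the nearest diestrus loop was 140 kb away. A span of 50 kb is the shortest in the estrus list, and the donut itself gave 147 expected contacts. The strength of 2.27 was below the median of 3.43 over all estrus loops and of 2.57 over estrus loops not found in diestrus. Neither bin was an anchor in diestrus. The 2 promoters are printed because they lie in the anchors of this loop, with the half-site GGTCA in capitals.

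Ublcp1 start site, chr11:44470499-44470798, minus strand: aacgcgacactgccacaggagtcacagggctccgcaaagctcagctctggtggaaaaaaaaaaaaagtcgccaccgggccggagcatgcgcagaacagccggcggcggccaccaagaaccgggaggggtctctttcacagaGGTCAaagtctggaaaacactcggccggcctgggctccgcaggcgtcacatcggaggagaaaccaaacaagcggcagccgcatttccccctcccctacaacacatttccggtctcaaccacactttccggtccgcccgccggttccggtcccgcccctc
Rnf145 start site 3, chr11:44520039-44520338, plus strand: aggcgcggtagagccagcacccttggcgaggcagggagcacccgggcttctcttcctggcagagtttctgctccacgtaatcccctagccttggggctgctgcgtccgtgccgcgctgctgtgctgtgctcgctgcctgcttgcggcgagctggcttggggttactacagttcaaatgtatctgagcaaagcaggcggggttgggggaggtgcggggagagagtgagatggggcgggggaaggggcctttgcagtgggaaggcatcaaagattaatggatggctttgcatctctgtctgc

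The half-site occurred 1 time in the Ublcp1 promoter and 0 times in this Rnf145 promoter, and neither held the EBF, CTCF core, full estrogen or progesterone motifs. Their GC contents were 62% and 61.7%. The other 2 start sites of Rnf145, at 44518956 and 44519377, lie in the bin before, which carried 0 loops in either list.

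The remaining upstream loops were mostly shared, 8 in each list. Those with most contacts linked bins inside Adra1b, the gene of the alpha-1B adrenergic receptor, to 44210001 and to 44320001. From 43780001 inside Adra1b to 44320001 there were 273 contacts in estrus and 308 in diestrus, at 4.68 and 5.09 times the expected number. From 43830001, which holds a start site of Adra1b, to 44210001 there were 160 and 193 contacts in estrus and diestrus. The bin 44450001 to 44460000 holds the 3′ end of Ublcp1, and its loop of 690 kb from 43760001 held 108 contacts in estrus and 137 in diestrus, at 5.59 and 6.56 times. Il12b, a cytokine subunit gene, lies between these anchors and had 0 loops in either list.

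Beyond Ebf1, the bin 45920001 to 45930000 holds the 3′ end of Lsm11, a component of the U7 particle that processes histone transcripts. It was joined to 44580001 over 1340 kb, the longest span in the window, with 79 contacts in estrus (62.5 to 98.5) and 95 in diestrus (76.9 to 116). This was 6.34 times the expected number in estrus and 6.61 times in diestrus. Thg1l, the gene of an enzyme that adds a guanine to histidine tRNA, has both of its start sites in 45950001 to 45960000. That bin looped to 46120001, which holds a start site of the metalloproteinase gene Adam19, with 76 contacts in estrus and 92 in diestrus. It looped to 46210001 inside Cyfip2, a gene of the actin-regulating WAVE complex, with 145 and 232 contacts in estrus and diestrus, a ratio of 0.625 (0.504 to 0.772). In estrus it also looped to 46250001 in Cyfip2, with 122 contacts (101 to 146) at 3.04 times the expected number.

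At the edges of the window, the first anchor inside was 44210001 and the last was 45950001 in both lists. The first anchor past the window was 46010001, at the end of Sox30, with 2 loops in each list that the rule left out. The loop from there to 46210001 was in both lists, with 285 contacts in estrus and 338 in diestrus, 6.61-fold and 6.03-fold over the donut. The other ran to 46120001 in estrus, with 127 contacts and 3.02-fold, and to a different bin, 46060001, in diestrus, with 154 contacts and 2.00-fold.

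Among protein-coding genes, 31 had as many loops as Ebf1 or more in estrus and 10 in diestrus, Ebf1 included. The 5 genes nearest to it in their pair of loop numbers, by the distance between square roots over the 2 libraries, were Qk, with 9 loops in estrus and 12 in diestrus, the predicted gene Gm46608 with 10 and 13, Tent5a with 10 and 13, Flrt2 with 8 and 13, and Btg1 with 10 and 11. Qk encodes an RNA-binding protein, Tent5a a poly(A) polymerase, Flrt2 a guidance and adhesion protein, and Btg1 an antiproliferative protein.

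By gene ends in an anchor, the measure by which Ebf1 was chosen, the other EBF genes had fewer loops than Ebf1. Ebf2, which acts in brown fat cells and neurons, had 0 in estrus and 2 in diestrus. Ebf3, which acts in neurons, had 3 in estrus and 1 in diestrus, but 6 and 6 when an anchor could lie up to 5 kb from a gene end. Ebf4 had 2 and 2. The family together had 14 loops in estrus and 18 in diestrus, of which Ebf1 had 9 and 13. Counting anchors anywhere along the genes, Ebf1 had 11 of 25 loops in estrus and 14 of 29 in diestrus, Ebf2 had 6 and 7, and Ebf3 had 6 and 6.

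Genes of proteins that work with or against EBF factors had 32 loops in estrus and 31 in diestrus over 10 genes, of which 4 had more in estrus, 3 more in diestrus, 1 an equal number and 2 none. With stricter q-values the order turned, to 29 and 30. Zfp521, a zinc finger protein that opposes EBF1, had 5 loops in estrus and 8 in diestrus, and its relative Zfp423 had 3 and 4. The E-protein gene Tcf4 had 10 and 9, Foxo1 had 6 and 6, Runx1 had 3 and 1, and Spi1 had 4 and 2. Across the protein-coding genes of the genome, estrus had the higher number at 2267, diestrus at 3027, and both had an equal number at 3755, while 12582 of 21631 had no loop.

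Of 10 B-lineage genes, 9 had no loop in either list, and Blk, a kinase of B-cell receptor signalling, had 2 and 2. That count depended on the bins given to a gene, since within 5 kb the recombinase gene Rag1 had 4 and 4 and Vpreb1, of the surrogate light chain, 0 and 1. Among 8 genes of perivascular cells and fibroblasts, 15 loops were counted in estrus and 18 in diestrus, with Pdgfra at 6 and 8 and Cspg4 at 5 and 4. Of the 8, 1 had more in estrus, 3 more in diestrus, 1 an equal number and 3 none. The 3 with none were all perivascular genes, so by gene ends Cspg4 held all loops of that cell type. Among 6 adipocyte genes there were 9 in estrus and 8 in diestrus, with Cebpb at 4 and 3 and Adipoq at 1 and 2. Of the 6, 2 had more in estrus, 1 more in diestrus, 2 an equal number and 1 none. A difference in the share of cell types between the 2 whole-uterus libraries cannot be told apart from a difference within cells, and loop numbers are no measure of expression.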

How the data were processed

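Per the labels' protocols, the 2 Hi-C libraries used the Arima HiC kit; they were grouped by labelled stage. The submitters' processing notes name Juicer and mm10; the aligner, versions and caller settings were not given in the sources used here. Columns are those of HiCCUPS, per the file headers. Contacts per loop and merged pixels are counts by the authors, without normalization. Expected contacts for 4 neighbourhoods form a signal from the authors' caller. The q-values are the authors', with listed maxima of 0.0991 in estrus and 0.0955 in diestrus. Positions, in the deposited files, are bases (other: not measurements) and are printed from 1. Only called loops are listed, and contacts of uncalled pairs are unknown. The lists hold 4153485 contacts in estrus and 4533525 in diestrus; full depth is not used here.

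A loop was found in the other list when both anchors lay within 10 kb of those of a loop there, between nearest edges. Mutually nearest loops were paired. Strength was contacts over the donut expectation, and its log2 ratio was centred on the median over all pairs. Printed intervals are 95%, from the exact Poisson (contacts) or the exact conditional method (ratios), with expected contacts taken as exact. They cover counting error only and take read pairs as independent molecules, which they may not all be. Python 3.11.15, pandas 2.3.3 and scipy 1.17.1 were used, and the pairing was tested on simulated data.

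Genes and promoters came from RefSeq tables of GRCm38.p6. A gene had a loop when either of its ends lay in an anchor. All 38 listed genes matched. Members, gene lists and rules were chosen with earlier results of these data known. The rule for names took coding genes with an end in a member anchor, the EBF family, list members with at least 3 loops, the 5 genes nearest Ebf1 in loop numbers, every Ebf1 loop, and the 3 extreme pairs and single-stage loops per direction. Genes with a start site in an anchor, or that hold one, and Il12b, Sox30, Adipoq, Rag1 and Vpreb1 were added after their values were seen. Alternatives covered q-values, list length, tolerance, neighbourhood, window and the bins given to a gene.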

Additional observations from a re-analysis of the deposited data

How the results depend on the processing

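Among 143 recomputed values, 122 stayed near the main value, 19 moved and 2 turned direction. A count or difference stayed when it was within 1.5 times the main one. A median stayed when it lay in a range taken from the ranked values of the loops themselves. That range spans loops and not replicates, and for the start-bin background it was the full range of the loops. The strongest Ebf1 loop stayed when it lay in its counting interval. The difference in loops of the window, estrus minus diestrus, of -4 was -2 with all 4 q-values at most 0.01 and 1 when only the 24131 strongest diestrus loops were kept, which by construction removes diestrus loops alone. The difference at Ebf1, for whose loop numbers the gene was chosen, was -4 or -3 in all settings tried. These settings recount the same lists and are no independent check. With raw contacts in place of strength, the median centred log2 ratio was -0.21, with 1 pair over 1.5-fold higher and 2 lower in estrus, and the strongest Ebf1 loop was at -0.29; the local background is then not divided out. The background of the start-bin pairs, a set of alternatives chosen after seeing the data, had a median log2 ratio of -0.26 to -0.43 under the other neighbourhoods. Counting anchors anywhere along a gene, which takes in more bins, the EBF family had 25 loops in estrus and 29 in diestrus, the partner list 71 and 69, the B-lineage list 5 and 5, and perivascular and fibroblast genes 24 in estrus. With gene ends within 5 kb the B-lineage list had 6 and 7, a difference of -1. The difference of 1 in the partner list was -1 with stricter q-values, 4 with the shortened list, 4 with ends within 5 kb and 2 with anchors anywhere along a gene, and that of the adipocyte list was 0 with stricter q-values; the cause was not tested. No paired analysis was possible because each stage has 1 library. Loops near the caller's limits can enter 1 list alone by counting error, and no value here covers the spread between animals.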
